A study of Mus musculus with 20 samples.

Results

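Interleukins are secreted proteins through which immune, epithelial and stromal cells signal to each other, and their receptors, decoys and antagonists set which cells respond. The genes described here were all protein-coding genes whose symbol begins with Il followed by a number. There were 82 of them among the 38924 genes of the table, of which 22572 were protein-coding. By role they comprised 37 ligands, 39 receptor chains, 5 inhibitors (decoy receptors, binding proteins and receptor antagonists, with Il13ra2 left among the receptor chains) and Il4i1, a secreted amino acid oxidase that carries the name only. RNA of a liver lobe was sequenced from 20 male mice in 4 groups of 5, on a background given as C57/BL6 in the labels and as C57BL/6J in the methods of the study. The mice were labelled wild type (WT) or TSP-1 null, the latter carrying a purchased knockout of Thbs1, the gene of thrombospondin-I, in every cell. They were bought at 5 weeks of age, acclimated for 1 week and kept for 12 weeks on control chow or on CDAHFD. CDAHFD is a high fat chow without choline and with limited methionine, in which protein is replaced by defined amino acids. It serves as a diet model of steatohepatitis. The 4 groups are called WT control, null control, WT CDAHFD and null CDAHFD below, where null is the label only. The lobe sampled was given as right medial in the series description and as right lateral in the methods of the study.

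Interleukins of the IL-1 group, such as IL-1 beta, act through receptors of the Toll/IL-1 type that lead to NF-kB. Most other interleukins act through receptor chains that recruit Janus kinases and STAT factors, and several chains are shared between cytokines, such as gp130 (Il6st), the common gamma chain (Il2rg) and Il10rb. In liver, hepatocytes respond to IL-6 and IL-1 with acute phase proteins, whereas Kupffer cells, infiltrating myeloid cells, lymphocytes and stellate cells make and answer most other members.

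Thbs1 was examined first because it is the targeted gene. It ranged from 0.058 to 0.326 FPKM (fragments scaled to gene length and library size) in WT control livers and from 0.986 to 1.90 in null control livers, so that the libraries labelled null were higher on control diet, with a log2 difference of 2.28 (SE 0.24, limma adjusted p = 1.02e-05). On CDAHFD it ranged from 3.46 to 6.10 in libraries labelled WT and from 3.05 to 4.40 in those labelled null (log2 difference -0.39, adjusted p = 0.408). The gene-level value cannot show whether a transcript was intact, so the directions by genotype below refer to the labels. Libraries held between 15641544 and 23276322 fragments, and the hepatocyte markers fixed for the check, Alb among them, were all present in each group. One WT CDAHFD library, number 5, carried 5.55% of its fragments on 2 ribosomal RNA-like genes, against 0.176% to 1.98% in the other 19, and it had the lowest value of its group for 23 of the 39 members tested.

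Receptor chains were measurable in this tissue more often than ligands. Of the 82 members, 39 passed the filter for testing, an FPKM above 0.5 in at least 5 of the 20 libraries: 26 of 39 receptor chains, 10 of 37 ligands, 2 of 5 inhibitors and Il4i1. Of these 39, 15 exceeded 0.5 FPKM in fewer than 5 control diet libraries and thus passed with the help of CDAHFD libraries, whereas none depended on the control diet in this way. The other 43 stayed under the filter, and 15 of them had no fragment in any library, among them Il17a, Il17f, Il22, Il3 and Il9. Levels were compared between genes on the FPKM scale, which is per length. In WT control livers the highest receptor chain was Il6st with a mean of 24.4 ± 1.91 FPKM. The highest ligand, Il18, reached 5.42 ± 1.34 and the highest inhibitor, Il18bp, 9.47 ± 1.92. In WT control livers 9 receptor chains and 1 ligand had a mean above 5 FPKM, and in WT CDAHFD livers 15 receptor chains and again 1 ligand did.

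**Figure D1:**
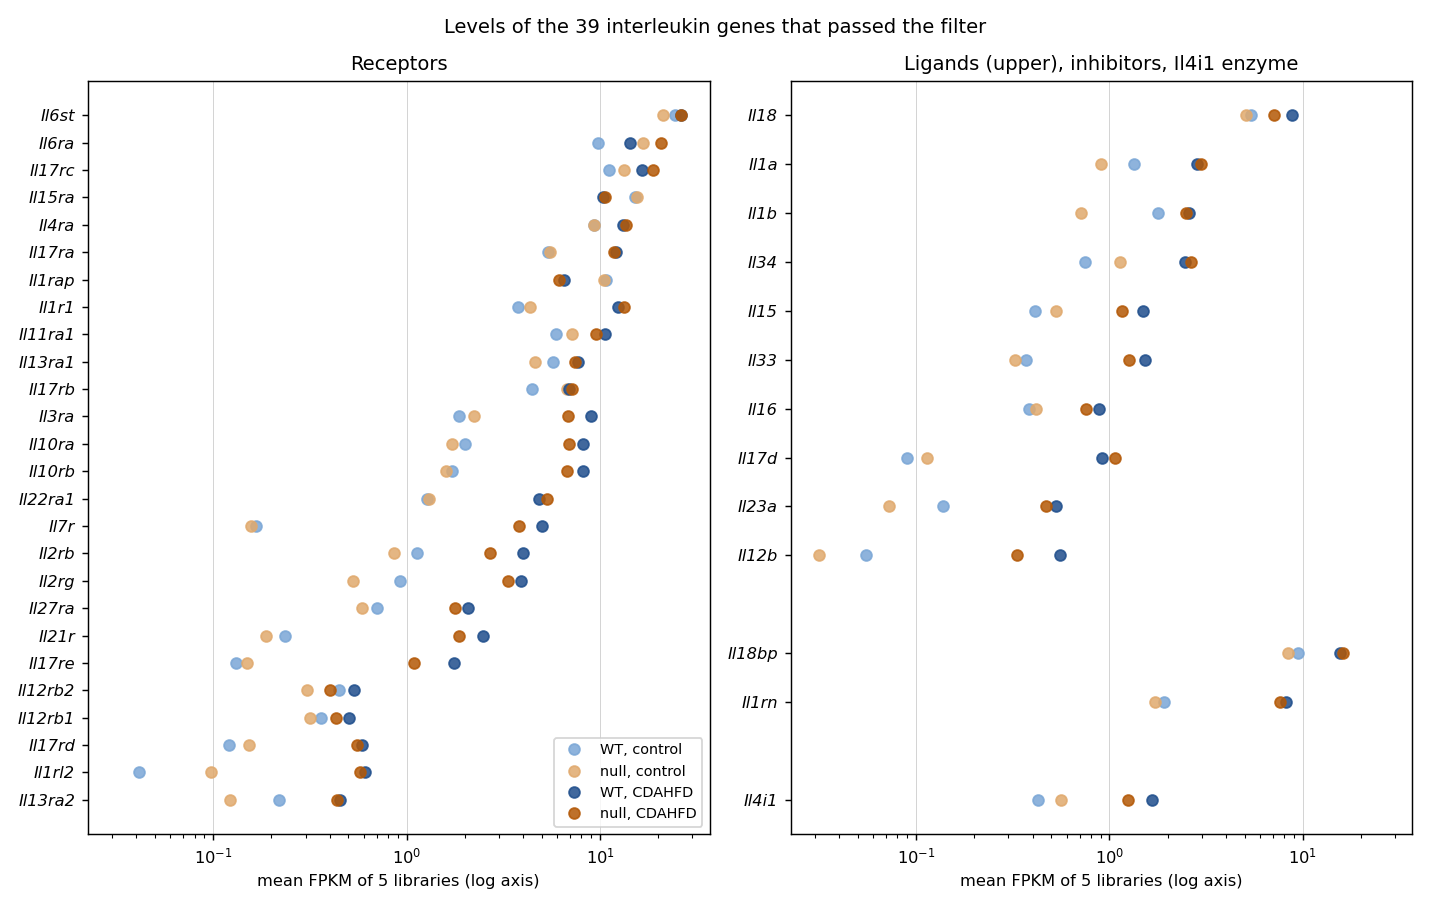
Mean FPKM of 5 libraries (log axis) for the 39 interleukin genes that passed the filter, with receptor chains on the left and ligands, inhibitors and Il4i1 on the right; each point is a group. Il6st, at 21.1 to 26.3 FPKM, lay above every other member in all 4 groups, and most CDAHFD points lie to the right of the control points except for Il1rap and Il15ra.

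Feeding CDAHFD was accompanied by higher transcript levels of most tested members. In mice labelled WT, 31 of the 39 tested members changed, 30 higher and 1 lower, with Il7r, Il17re and Il21r showing the largest rises and Il1rap the only fall. In mice labelled TSP-1 null 29 changed, 28 higher and 1 lower, again with Il7r highest and Il1rap the only fall among them. Without WT CDAHFD library 5, the library with the most ribosomal RNA-like fragments, 35 members were called in mice labelled WT. The shares of all genes given below come from the fit of all libraries and do not cover that count. A change was called at an adjusted p (Benjamini-Hochberg over all genes tested) under 0.05 and an absolute log2 fold change above 0.58 in limma on log2(FPKM + 0.1), which understates the change of low genes. A large share of the whole transcriptome was called in these comparisons as well: 48.8% of the 14524 tested genes changed with diet in mice labelled WT, 44.1% higher and 4.62% lower, and 45.9% did so in mice labelled null, 41.9% higher and 4.00% lower. The 15 members that passed the filter with the help of CDAHFD libraries had to be high on CDAHFD to be tested. These were Il7r, Il17re, Il21r, Il1rl2, Il12b, Il12rb1, Il12rb2, Il13ra2, Il15, Il16, Il17d, Il17rd, Il23a, Il33 and Il4i1. The largest rises in mice labelled WT, of Il7r, Il17re and Il21r, are thus among the rises that the filter favoured. Of the other 24, 17 rose and 1 fell in mice labelled WT, and 15 rose and 1 fell in mice labelled null, a count made after the data were seen. Of the 12117 genes chosen in the same way on control diet, 43.4% were called in mice labelled WT, 37.9% higher and 5.50% lower, and 40.6% in mice labelled null, 35.9% higher and 4.71% lower. The median over these 24 was 0.93 and 1.13, beside 0.44 and 0.42 over those genes. The median log2 fold change of the 39 members tested was 1.46 in mice labelled WT and 1.38 in mice labelled null, beside 0.53 and 0.50 over all genes tested. A total of 27 members were called in both, all in the same direction, 4 (Il6ra, Il11ra1, Il17rb and Il18) only in mice labelled WT and 2 (Il1b and Il13ra1) only in mice labelled null. The difference between the 2 diet responses was called for none of them. Of the ligands tested, 9 of 10 rose in either genotype label, or 3 of the 4 among those 24, and of the receptor chains 18 of 26 rose in mice labelled WT and 16 of 26 in mice labelled null. For 26 members all 5 WT CDAHFD livers were above all 5 WT control livers, and for 31 members the same held in mice labelled null. Of all genes tested, 50.5% and 52.7% did so. In the opposite direction 2 members, Il1rap and Il15ra, did not overlap in either label, beside 5.70% and 5.03% of all genes.

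**Figure D2:**
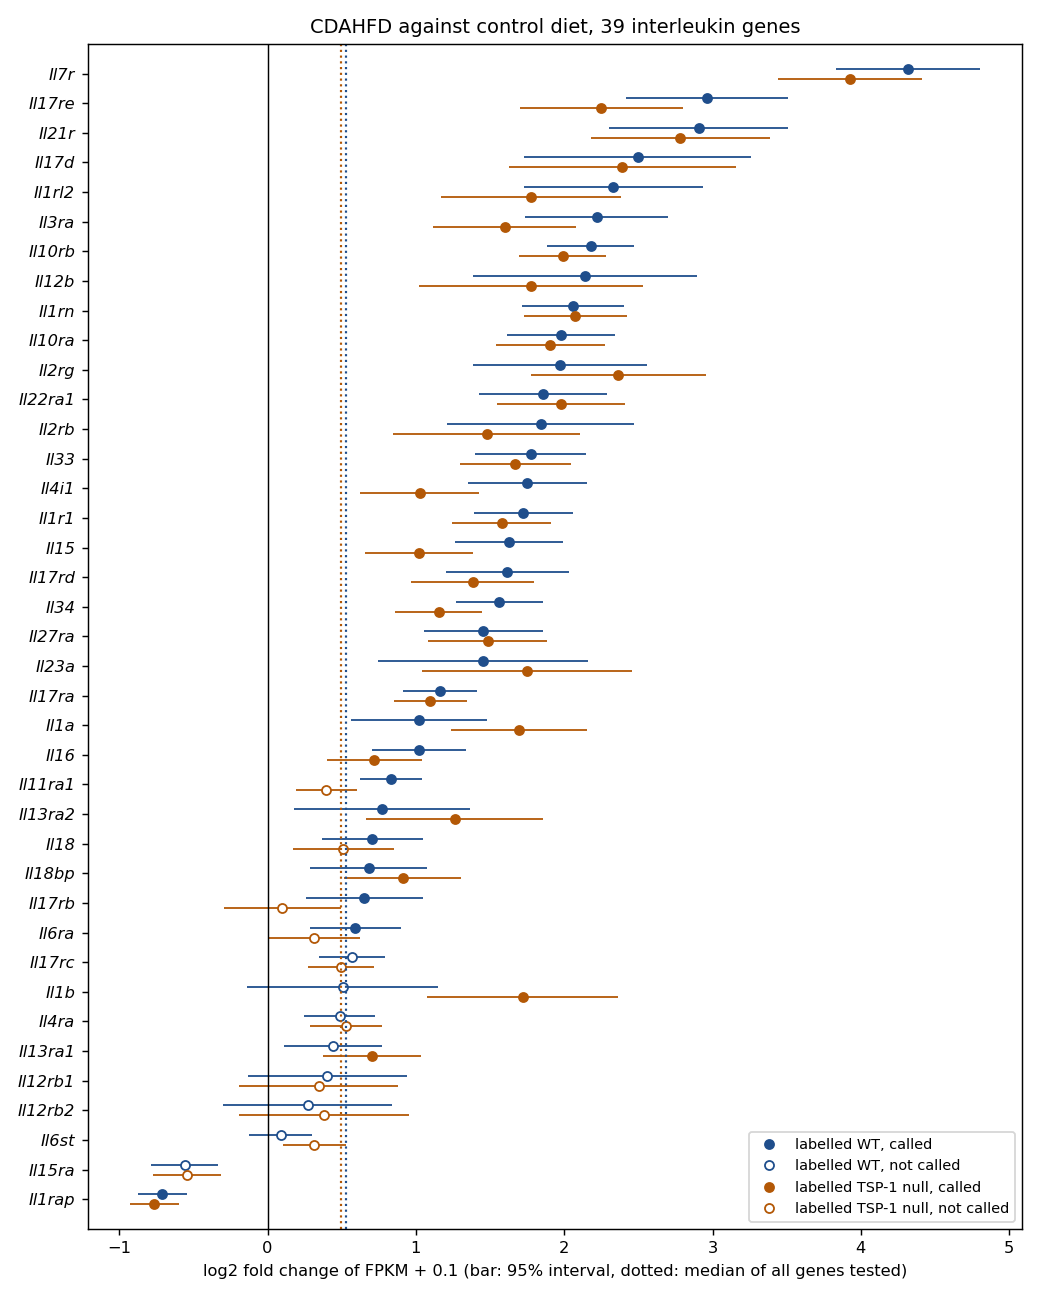
Log2 fold change of FPKM + 0.1 on CDAHFD against control diet (x axis) for the 39 tested members (y axis), in mice labelled WT and TSP-1 null; bars are 95% intervals from limma, filled points were called, and dotted lines mark the median of all 14524 genes tested. Il7r stands at 4.32 and 3.93, whereas Il1rap (-0.71 and -0.76) and Il15ra (-0.56 and -0.54) lie left of 0.

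These rises were measured on a scale on which the whole transcriptome moved. Scaling by the median of ratios lowered the median diet difference of all genes by 0.52 (log2) in mice labelled WT and by 0.50 in mice labelled null, and then 22 members were called higher and 2 lower in mice labelled WT, and 23 higher and 2 lower in mice labelled null. Of the 14524 genes tested, 3351 were then called higher and 2145 lower in mice labelled WT, and 3283 and 1921 in mice labelled null. After quantile normalization the counts of members were 17 higher and 5 lower, and 16 higher and 4 lower. Those of all genes were 2514 higher and 2562 lower, and 2421 higher and 2186 lower. Relative to the median of all genes, the members' median was 0.92 and 0.89 in mice labelled WT and null without further scaling, 1.05 and 0.99 with median of ratios and 0.57 and 0.45 with quantile normalization. These counts and medians include the 15 members that had to be high on CDAHFD to be tested. For the other 24 the unscaled medians were 0.93 and 1.13, beside 0.44 and 0.42 over genes chosen in the same way. Scaled values for those 24 alone were not computed.

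The bulk tissue held more transcripts of several non-hepatocyte cell types on CDAHFD. More or fewer cells of a type cannot be told apart from more or less RNA per cell. Of all genes tested, 44.1% rose and 4.62% fell in mice labelled WT, and 41.9% and 4.00% in mice labelled null. Markers low on control diet could pass the filter with the help of CDAHFD libraries, and no count without such markers was made. In each of the diet comparisons 7 of 8 T cell markers rose, and their summed level ran from 1.55 to 4.66 FPKM in WT control, 1.87 to 3.10 in null control, 7.29 to 16.6 in WT CDAHFD and 3.44 to 10.8 in null CDAHFD livers. For macrophages 7 of 11 markers rose and 2 fell in mice labelled WT, and 6 rose and 2 fell in mice labelled null, with sums of 118 to 173, 114 to 200, 420 to 583 and 310 to 588 FPKM in the same order of groups. All 4 neutrophil markers tested of 7 listed rose, with sums of 1.92 to 6.13, 2.21 to 5.98, 25.0 to 40.7 and 17.3 to 34.9 FPKM. All 8 stellate cell markers rose as well, with sums of 18.6 to 24.5, 22.1 to 24.4, 80.6 to 161 and 86.4 to 136 FPKM. So did all 5 cholangiocyte markers, with sums of 15.2 to 18.002, 12.4 to 15.5, 292 to 488 and 181 to 360 FPKM. Dendritic cell markers rose in 5 of 6 (2.16 to 2.89, 1.89 to 3.504, 6.51 to 12.0 and 6.34 to 10.3 FPKM), NK and innate lymphoid markers in 3 of 4 tested of 7 listed (0.764 to 1.45, 0.475 to 1.27, 3.65 to 7.55 and 2.99 to 6.33 FPKM) and B cell markers in 4 of 4 tested of 5 listed (0.848 to 3.16, 2.09 to 5.21, 5.50 to 8.42 and 5.63 to 10.8 FPKM). None of the 6 mast cell and basophil markers passed the filter. Their sum never exceeded 0.232 FPKM, and Fcer1a had no fragment in any library. Of 7 endothelial markers 1 rose in mice labelled WT and 2 in mice labelled null, with sums of 59.4 to 63.3, 47.9 to 58.7, 52.3 to 76.5 and 57.6 to 86.5 FPKM. Of 3 erythroid markers 1 and 2 fell, with sums of 114 to 166, 112 to 310, 94.9 to 195 and 92.0 to 178 FPKM. Of 8 hepatocyte markers 2 fell in mice labelled WT and 3 in mice labelled null, with sums of 37700 to 44688, 42233 to 49190, 28495 to 40719 and 36220 to 47791 FPKM. Their part in the results on interleukin genes was not tested.

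In the IL-1 group Il1a, Il33, the antagonist Il1rn and the receptor Il1r1 rose in both labels, Il1b rose in mice labelled null and Il18 in mice labelled WT, and the accessory chain Il1rap fell in both. Il1a, an alarmin held in cells until damage, measured 1.46, 1.09, 1.28, 1.24 and 1.62 FPKM in WT control, 1.08, 0.379, 0.704, 1.01 and 1.33 in null control, 2.43, 3.60, 3.12, 2.49 and 2.52 in WT CDAHFD and 2.64, 2.95, 2.37, 3.33 and 3.56 in null CDAHFD livers. All CDAHFD livers were above all control livers, with log2 fold changes of 1.02 (SE 0.22) and 1.70 (SE 0.22) in mice labelled WT and null. Under median of ratios scaling the rise in mice labelled WT was 0.51 (adjusted p = 0.0556), and under quantile normalization 0.15, and was not called. Il1b, which is processed by caspase-1 and drives fever and acute phase responses, measured 2.21, 1.38, 2.68, 1.41 and 1.26 FPKM in WT control, 0.610, 0.415, 0.785, 1.38 and 0.389 in null control, 1.64, 1.89, 3.21, 3.68 and 2.52 in WT CDAHFD and 1.90, 3.59, 2.25, 1.51 and 3.16 in null CDAHFD livers. The 2 WT groups overlapped, at a log2 fold change of 0.51 (SE 0.31, limma adjusted p = 0.144) that became -0.01 under the median of ratios scaling and -0.35 under quantile normalization. All 5 null CDAHFD livers were above all 5 null control livers (log2 fold change 1.72, SE 0.31, adjusted p = 5.65e-05). The difference between these responses was 1.21 (95% interval 0.30 to 2.13) and was not called (adjusted p = 0.184, 0.105 to 0.289 over the alternatives).

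Il1rn, the secreted antagonist that blocks the IL-1 receptor, was higher than either agonist on CDAHFD. It measured 1.85, 1.44, 2.56, 1.58 and 2.11 FPKM in WT control, 1.28, 1.82, 2.08, 1.95 and 1.43 in null control, 7.81, 7.79, 9.77, 8.50 and 6.999 in WT CDAHFD and 7.08, 10.1, 7.96, 5.65 and 7.10 in null CDAHFD livers. No CDAHFD liver overlapped with a control liver, and the log2 fold changes were 2.06 and 2.08 (SE 0.16 for both). Il18bp, which captures IL-18, rose by 0.68 and 0.91 from means of 9.47 ± 1.92 and 8.34 ± 1.02 FPKM (SD, n = 5), and neither rise was called under the median of ratios or quantile scaling. The former was also not called without WT control library 4 (0.56) or WT CDAHFD library 3 (0.55). Il18, the ligand it captures, measured 4.39, 7.13, 4.96, 4.08 and 6.53 FPKM in WT control, 4.89, 4.07, 4.20, 4.56 and 7.69 in null control, 8.12, 9.74, 9.81, 8.99 and 7.13 in WT CDAHFD and 7.04, 7.16, 7.01, 7.51 and 6.69 in null CDAHFD livers. Its highest control value, 7.69 in null control liver 5, overlapped with both CDAHFD groups, and the log2 fold change of 0.71 was called in mice labelled WT, though not under either scaling (0.17 and 0.13), while 0.51 (adjusted p = 0.00829) was below the fold threshold in mice labelled null, where it became -0.06 under quantile normalization. Il33, a nuclear alarmin of endothelial and stromal cells, measured 0.357, 0.228, 0.467, 0.424 and 0.382 FPKM in WT control, 0.403, 0.351, 0.278, 0.325 and 0.274 in null control, 1.82, 1.78, 0.957, 1.44 and 1.60 in WT CDAHFD and 1.11, 1.24, 1.04, 1.33 and 1.58 in null CDAHFD livers. The diets did not overlap, and Il33 rose by 1.77 (SE 0.18) and 1.67 (SE 0.18).

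Il1r1, the signalling receptor for both IL-1 agonists, measured 2.73, 5.75, 3.40, 3.34 and 3.52 FPKM in WT control, 4.93, 3.98, 4.72, 4.16 and 3.97 in null control, 15.1, 10.8, 12.8, 10.5 and 12.5 in WT CDAHFD and 15.7, 10.6, 14.6, 14.5 and 11.01 in null CDAHFD livers. All CDAHFD livers were above all control livers, and the rise was 1.72 and 1.58 (log2, SE 0.16). Il1rap, the accessory chain without which Il1r1, the IL-33 receptor and the IL-36 receptor do not signal, measured 9.50, 10.02, 11.1, 10.8 and 12.0 FPKM in WT control, 10.6, 10.3, 9.76, 9.65 and 12.2 in null control, 6.4, 6.08, 6.81, 6.42 and 6.69 in WT CDAHFD and 6.69, 6.17, 6.58, 5.89 and 5.36 in null CDAHFD livers. It was the only one of the 39 tested members called lower in either diet comparison, with no overlap between diets and log2 fold changes of -0.71 and -0.76 (SE 0.08, adjusted p = 1.24e-07 and 5.33e-08). In all 35 alternatives both falls were called, between -1.25 and -0.64 in mice labelled WT and between -1.28 and -0.69 in mice labelled null. A non-coding gene on the opposite strand, Gm20319, overlaps Il1rap and reached 30.8 FPKM. Whether the counting used strand is not given in the sources used here. Il1rl2, the IL-36 receptor, measured 0.0440, 0, 0, 0.0600 and 0.103 FPKM in WT control, 0.0750, 0.113, 0.0550, 0.192 and 0.0510 in null control, 0.801, 0.680, 0.683, 0.334 and 0.534 in WT CDAHFD and 0.534, 0.361, 0.884, 0.649 and 0.457 in null CDAHFD livers. It was close to 0 on control diet, at 0 to 6 fragments a library, and at 11 to 31 fragments on CDAHFD, where it rose by 2.33 and 1.78 (SE 0.29), the latter not called with a pseudocount of 1 (0.52) or under quantile normalization (0.36).

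**Figure D3:**
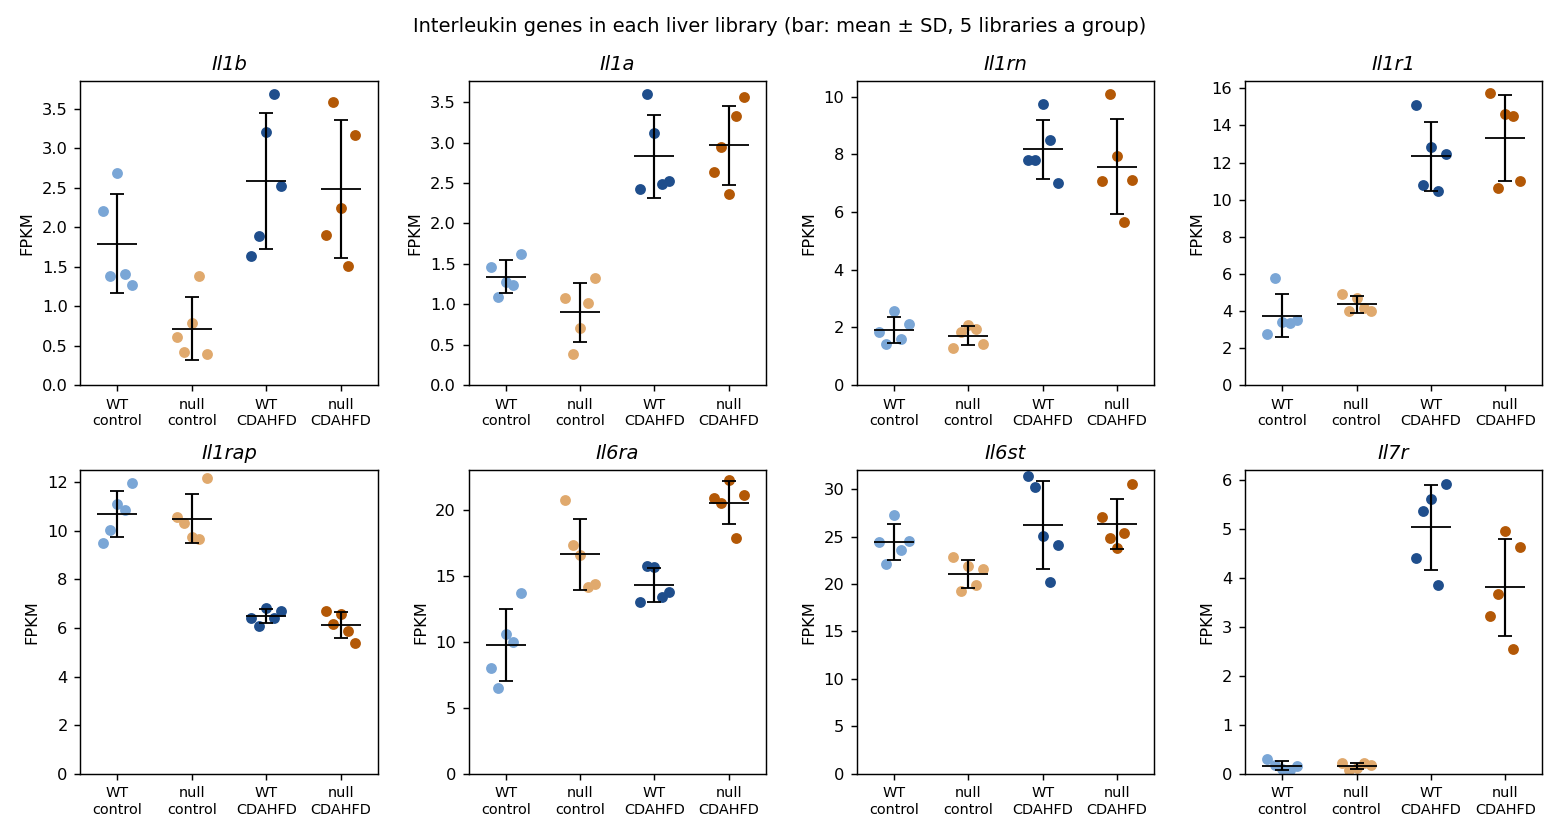
FPKM of 8 interleukin genes in each of the 20 libraries (points), with the mean and SD of the 5 libraries of each group (bars). On control diet Il1b is lower and Il6ra higher in the libraries labelled null, Il7r is below 0.31 FPKM in every control liver and above 2.5 in every CDAHFD liver, and Il1rap is below 7 FPKM in all 10 CDAHFD livers.

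Promoter sequence is shown for 4 of these genes. Il1b and Il6ra were the members called by genotype label on control diet, a share of 5.13% beside 4.77% of all genes tested. Il7r, which passed the filter with the help of CDAHFD libraries, had the largest rise with diet, and Il1rap the only called fall. Each line gives the 250 bases before the RefSeq transcription start (build GRCm38.p6), 5′ to 3′ on the strand of the gene, with capitals marking matches on either strand to an NF-kB motif (GGGA, any 4 bases, CC) or a STAT motif (TTCNNNGAA). Il1b lies on the minus strand with its window at chr2:129371140-129371389, Il6ra on the minus strand at chr3:89913197-89913446, Il7r on the minus strand at chr15:9529877-9530126 and Il1rap on the plus strand at chr16:26581455-26581704. In the coordinates of the deposited table the genes themselves span chr2:129364570-129371139, chr3:89869324-89913162, chr15:9506161-9529876 and chr16:26581704-26730117, in this order.
Il1b: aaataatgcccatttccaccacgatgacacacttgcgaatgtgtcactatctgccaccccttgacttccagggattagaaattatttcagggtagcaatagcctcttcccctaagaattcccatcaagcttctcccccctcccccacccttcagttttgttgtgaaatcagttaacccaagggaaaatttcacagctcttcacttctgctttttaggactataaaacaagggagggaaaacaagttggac
Il6ra: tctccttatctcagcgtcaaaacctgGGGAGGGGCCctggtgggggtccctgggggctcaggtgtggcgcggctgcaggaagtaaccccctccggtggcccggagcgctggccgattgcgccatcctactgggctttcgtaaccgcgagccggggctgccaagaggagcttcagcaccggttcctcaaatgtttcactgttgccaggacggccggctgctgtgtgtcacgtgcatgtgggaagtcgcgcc
Il7r: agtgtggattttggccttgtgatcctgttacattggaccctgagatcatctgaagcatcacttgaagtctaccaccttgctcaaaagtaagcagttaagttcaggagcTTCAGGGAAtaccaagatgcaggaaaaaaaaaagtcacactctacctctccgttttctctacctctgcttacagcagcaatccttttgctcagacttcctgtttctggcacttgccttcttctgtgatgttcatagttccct
Il1rap: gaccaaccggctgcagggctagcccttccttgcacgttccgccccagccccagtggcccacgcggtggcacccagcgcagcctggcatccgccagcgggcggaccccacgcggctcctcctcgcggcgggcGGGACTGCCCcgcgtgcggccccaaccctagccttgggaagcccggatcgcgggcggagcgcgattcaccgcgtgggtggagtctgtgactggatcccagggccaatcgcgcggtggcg
Il6ra and Il1rap each held 1 NF-kB match, which starts 224 and 119 bases before the start, Il7r held 1 STAT match, 142 bases before it, and Il1b held no match in this window. None of the 4 held the AP-1 motif TGANTCA, the third that was searched. Of 32851 promoter windows of 250 bases in the table, 17.6% held the NF-kB motif, 7.0% the STAT motif and 6.7% the AP-1 motif; of the 80 windows of the 65 members that matched by symbol, 16, 8 and 14 did. A match is a match of letters only.

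The most abundant member belonged to the gp130 group. Il6st, the gp130 chain shared by IL-6, IL-11, IL-27 and other cytokines, measured 24.5, 22.1, 27.3, 23.6 and 24.6 FPKM in WT control, 22.8, 19.2, 21.9, 19.9 and 21.6 in null control, 31.4, 30.3, 25.0, 20.2 and 24.1 in WT CDAHFD and 27.1, 24.8, 23.8, 25.4 and 30.6 in null CDAHFD livers. Its groups overlapped except for the null livers, where the difference of 0.32 (SE 0.10, adjusted p = 0.00925) was below the fold threshold, and in mice labelled WT the difference was 0.09 (95% interval -0.12 to 0.30); under the median of ratios scaling both values turned below 0, to -0.20 and -0.45. Il6ra, the ligand-binding IL-6 receptor of hepatocytes, measured 7.99, 6.51, 10.6, 9.97 and 13.7 FPKM in WT control, 20.7, 17.4, 16.6, 14.2 and 14.4 in null control, 13.1, 15.7, 15.7, 13.4 and 13.8 in WT CDAHFD and 20.9, 20.6, 22.3, 17.9 and 21.2 in null CDAHFD livers. It rose with diet by 0.59 (SE 0.15) in mice labelled WT, a value at the fold threshold that was not called without WT control library 1 or 2 or without WT CDAHFD library 2 or 3 (0.46 to 0.56), with a pseudocount of 1 or under either scaling (0.05 and 0.16). The highest WT control liver overlapped with the WT CDAHFD range. It differed by 0.31 (adjusted p = 0.0637) in mice labelled null, a sign that turned under the median of ratios (-0.21) or quantile scaling (-0.04). Il11ra1, the IL-11 receptor, was at means of 5.94 ± 0.733, 7.20 ± 0.619, 10.6 ± 1.31 and 9.53 ± 1.01 FPKM (SD, n = 5) in WT control, null control, WT CDAHFD and null CDAHFD livers and rose by 0.83 in mice labelled WT, which was not called under either scaling (0.30 in both). The gene overlaps Galt on the same strand and has a near copy, Il11ra2, so that its fragments may be shared. Il27ra, the IL-27 receptor, rose by 1.46 and 1.49, with no overlap between diets, but under quantile normalization the former was 0.48 and not called. The ligand Il6 itself was barely sequenced, at 5, 4, 8 and 5 fragments summed over WT control, null control, WT CDAHFD and null CDAHFD libraries and at most 3 in a library, so that no difference in it was detectable at this depth.

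Chains of the common gamma group had the largest rise of any member. Il7r, which binds IL-7 on lymphocytes together with the common gamma chain, measured 0.308, 0.187, 0.105, 0.0730 and 0.156 FPKM in WT control, 0.211, 0.0690, 0.117, 0.215 and 0.170 in null control, 4.42, 5.36, 5.61, 3.84 and 5.92 in WT CDAHFD and 3.22, 3.67, 4.96, 2.56 and 4.63 in null CDAHFD livers. The lowest CDAHFD liver, at 2.56 FPKM, was above the highest control liver, at 0.308 FPKM, and the log2 fold changes were 4.32 (SE 0.23) in mice labelled WT and 3.93 (SE 0.23) in mice labelled null. As ratios of mean FPKM these were 30.3-fold and 24.3-fold. In every alternative Il7r was called in both labels, at 2.36 to 4.98 and 2.03 to 4.62. Il2rg, the common gamma chain itself, measured 0.756, 1.38, 1.11, 0.610 and 0.756 FPKM in WT control, 0.812, 0.387, 0.538, 0.419 and 0.477 in null control, 4.04, 4.11, 4.71, 4.28 and 2.25 in WT CDAHFD and 2.16, 3.67, 2.79, 1.91 and 6.13 in null CDAHFD livers. WT CDAHFD liver 5 and null CDAHFD livers 1 and 4 were the lowest on that diet but above all control livers, and the rises were 1.97 and 2.37 (SE 0.28).

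Il21r, the IL-21 receptor of B, T and NK cells, measured 0.247, 0.368, 0.237, 0.112 and 0.211 FPKM in WT control, 0.223, 0.101, 0.0820, 0.264 and 0.266 in null control, 3.02, 2.28, 2.38, 3.56 and 1.18 in WT CDAHFD and 1.51, 2.01, 1.60, 1.34 and 2.82 in null CDAHFD livers. The diets did not overlap in either label, and the rises were 2.91 and 2.78 (SE 0.29), beside the rise of T cell markers given above, whose part was not tested. Il2rb, which binds IL-2 and IL-15 on NK and T cells, rose by 1.84 and 1.48 from means of 1.13 ± 0.654 and 0.863 ± 0.231 FPKM (SD, n = 5), the latter 0.65 and not called under quantile normalization. Il15, which supports NK and memory T cells and is presented by Il15ra, rose by 1.63 and 1.02, of which neither was called under quantile normalization (0.57 and 0.08), nor the latter with a pseudocount of 1 or under the median of ratios scaling (0.50 and 0.56), whereas Il15ra had lower values on CDAHFD. Il15ra had means of 15.2 ± 1.35, 15.5 ± 1.93, 10.3 ± 1.73 and 10.6 ± 1.04 FPKM (SD, n = 5) in the order of groups used above, and no CDAHFD liver reached the lowest control liver, at 13.0 FPKM. Its log2 fold changes of -0.56 and -0.54 (adjusted p = 0.000131 and 0.000188) were just below the fold threshold. They were called as falls, at -1.10 and -1.06, under the median of ratios scaling. Il4ra, the chain through which IL-4 and IL-13 signal, measured 9.96, 9.77, 9.54, 7.91 and 9.18 FPKM in WT control, 10.1, 9.85, 9.12, 8.17 and 9.47 in null control, 15.7, 12.8, 13.4, 14.1 and 9.83 in WT CDAHFD and 13.4, 12.8, 14.5, 10.9 and 16.5 in null CDAHFD livers. Its values were higher by 0.49 and 0.53 (SE 0.11), below the fold threshold; under median of ratios or quantile scaling these differences were -0.05 and 0.01, or 0.03 and 0.10, respectively.

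The IL-10 and IL-22 receptor chains rose with diet in both labels, while their ligands were scarcely sequenced. Il10ra, the ligand-binding chain of IL-10 on leukocytes, measured 1.99, 2.55, 2.12, 1.45 and 1.88 FPKM in WT control, 1.88, 1.74, 1.86, 1.79 and 1.31 in null control, 8.75, 7.93, 8.32, 9.73 and 5.99 in WT CDAHFD and 5.67, 7.17, 6.26, 4.99 and 10.3 in null CDAHFD livers. Il10rb, its widely expressed partner that also serves IL-22, measured 1.91, 1.81, 1.90, 1.24 and 1.72 FPKM in WT control, 1.71, 1.47, 1.64, 1.74 and 1.42 in null control, 8.81, 8.15, 9.12, 8.44 and 6.08 in WT CDAHFD and 6.04, 7.02, 6.99, 4.98 and 8.59 in null CDAHFD livers. Il22ra1, the IL-22 receptor of epithelial cells and hepatocytes, measured 1.05, 0.933, 1.77, 1.45 and 1.15 FPKM in WT control, 1.87, 1.15, 0.958, 0.925 and 1.66 in null control, 6.19, 4.65, 5.74, 4.14 and 3.58 in WT CDAHFD and 6.77, 4.80, 6.21, 4.23 and 4.70 in null CDAHFD livers. For each of these 3 chains all 10 CDAHFD livers were above all 10 control livers. The log2 fold changes in mice labelled WT and null were 1.98 and 1.91 (SE 0.18) for Il10ra, 2.18 and 1.99 (SE 0.14) for Il10rb and 1.86 and 1.98 (SE 0.21) for Il22ra1. The pseudogene Gm20612 overlaps Il10ra on the opposite strand and reached 3.54 FPKM. The ligand Il10, the main anti-inflammatory interleukin, stayed at 15, 13, 11 and 12 fragments summed over WT control, null control, WT CDAHFD and null CDAHFD libraries, with 1 to 8 in a library, and Il22 had no fragment.

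In the IL-12 group the ligand subunits Il12b and Il23a rose, and the receptor chains Il12rb1 and Il12rb2 did not pass the test. Il12b, the subunit shared by IL-12 and IL-23, measured 0.109, 0, 0.143, 0 and 0.0250 FPKM in WT control, 0, 0.157, 0, 0 and 0 in null control, 0.567, 0.674, 0.577, 0.663 and 0.294 in WT CDAHFD and 0.184, 0.455, 0.311, 0.206 and 0.507 in null CDAHFD livers. It had 0 to 7 fragments in control libraries and 8 to 26 in CDAHFD libraries, with log2 fold changes of 2.14 and 1.77 (SE 0.36) that were not called under quantile normalization (0.78 and 0.70) or with a pseudocount of 1 (0.56 and 0.37). Il23a, the other subunit of IL-23, measured 0.221, 0, 0.165, 0.0860 and 0.221 FPKM in WT control, 0.0710, 0, 0.0790, 0.138 and 0.0730 in null control, 0.739, 0.586, 0.399, 0.664 and 0.255 in WT CDAHFD and 0.467, 0.376, 0.327, 0.633 and 0.541 in null CDAHFD livers. It rose by 1.45 in mice labelled WT. In mice labelled null the control libraries held at most 3 fragments each, and against 3 fragments per library the CDAHFD mean was at least 4.12-fold higher. Neither rise of Il23a was called under quantile normalization (0.02 and 0.37) or with a pseudocount of 1 (0.42 and 0.45). With Il23a at that bound, the median of the members in mice labelled null was again 1.38. The receptor chains Il12rb1 and Il12rb2 differed by 0.40 and 0.27 in mice labelled WT and by 0.35 and 0.38 in mice labelled null, with adjusted p of 0.165 or more; all 4 values turned below 0 under the median of ratios scaling (-0.18 to -0.01) and all were called lower under quantile normalization (-1.09 to -0.94). Il12a, the specific subunit of IL-12, had 4 fragments over all 20 libraries.

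Of the IL-17 group, receptors were measured widely and ligands hardly. Il17re, the receptor chain that binds IL-17C on epithelial cells, measured 0.0860, 0.180, 0.131, 0.175 and 0.0840 FPKM in WT control, 0.0970, 0.0880, 0.286, 0.146 and 0.132 in null control, 2.35, 2.11, 0.940, 1.79 and 1.55 in WT CDAHFD and 1.41, 0.620, 1.41, 0.947 and 1.05 in null CDAHFD livers. All CDAHFD livers were above all control livers. The rise was 2.96 (SE 0.26) in mice labelled WT and 2.25 (SE 0.26) in mice labelled null, and the difference of -0.71 between them was not called (adjusted p = 0.379). Il17ra, the chain that most receptors of this group share, had means of 5.39 ± 0.964, 5.49 ± 0.612, 12.1 ± 1.69 and 11.9 ± 1.44 FPKM (SD, n = 5) and rose by 1.16 and 1.10. Il17rc, its partner for IL-17A and IL-17F, differed by 0.57 and 0.49, below the fold threshold, and by 0.03 and -0.03 under the median of ratios scaling. Il17d, the only ligand of this group to pass the filter, measured 0.211, 0.0980, 0.138, 0 and 0 FPKM in WT control, 0.119, 0.0360, 0.131, 0.205 and 0.0810 in null control, 1.42, 1.00, 0.444, 0.739 and 0.995 in WT CDAHFD and 0.816, 0.524, 1.82, 1.12 and 1.03 in null CDAHFD livers. It stood at 0 to 6 fragments a library on control diet and at 10 to 40 on CDAHFD, a log2 fold change of 2.49 and 2.39 (SE 0.37). Il17a and Il17f had no fragment in any library, which allows up to 3 fragments a library, or 0.129 to 0.192 FPKM for a gene of 1 kilobase. Limits of this kind cover counting error only.

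Il3ra, the IL-3 receptor of myeloid cells and basophils, measured 2.06, 2.54, 2.18, 1.42 and 1.08 FPKM in WT control, 2.99, 2.46, 2.42, 1.44 and 1.88 in null control, 9.40, 10.8, 8.92, 10.6 and 5.02 in WT CDAHFD and 6.17, 6.10, 7.10, 6.32 and 8.47 in null CDAHFD livers. No CDAHFD liver overlapped with a control liver, and the rises were 2.22 and 1.60 (SE 0.23). Marker sums of the cell types that carry it are given above, and their part was not tested. Il13ra2, another chain that binds IL-13 and is known mainly as a decoy, rose by 0.77 and 1.26, but the differences were -0.80 and -0.21 under quantile normalization. With a pseudocount of 1 they were 0.25 and 0.35 and not called, and in mice labelled WT the call was also lost under the median of ratios scaling (0.36) and without WT control library 2 (0.62) or WT CDAHFD library 2 (0.64). Il34, a ligand of the CSF-1 receptor, rose by 1.56 and 1.15 with no overlap between diets, the latter 0.36 and not called under quantile normalization. Il16, a chemoattractant for CD4 cells whose gene overlaps Stard5 on the opposite strand, rose by 1.02 and 0.72, with -0.11 and -0.32 under quantile normalization, and was not called with a pseudocount of 1 (0.44 and 0.31) or under the median of ratios scaling (0.56 and 0.28). Il4i1 rose by 1.75 and 1.02, the latter not called with a pseudocount of 1 (0.52) or under the median of ratios (0.56) or quantile scaling (0.09). It overlaps Nup62 on the same strand and Atf5, at up to 428 FPKM, on the other.

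The comparison of genotype labels asks whether livers labelled null differ from livers labelled WT on the same diet. On control diet 2 of the 39 tested members were called, Il6ra higher and Il1b lower, a share of 5.13% beside 4.77% of all genes tested, of which 1.74% were higher and 3.03% lower. The median log2 difference of the members was -0.03, beside -0.07 over all genes. For Il6ra the 5 null control livers, at 14.2 to 20.7 FPKM, were all above the 5 WT control livers, at 6.51 to 13.7 FPKM, a log2 difference of 0.80 (SE 0.15, limma adjusted p = 0.00189). Il1b was at 0.389 to 1.38 FPKM in null control and 1.26 to 2.68 FPKM in WT control livers, where null control liver 4 overlapped with the WT range, and the difference was -1.28 (SE 0.31, adjusted p = 0.00992), or 15 to 42 against 44 to 98 fragments a library. Both calls were made in all 35 alternatives, at 0.66 to 0.93 for Il6ra and at -1.52 to -0.70 for Il1b. The 5 null control libraries also entered the diet comparison in which Il1b rose, and the 5 WT control libraries the other diet comparison.

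Between the same 2 groups endothelial marker sums did not overlap, at 59.4 to 63.3 FPKM (WT) and 47.9 to 58.7 (null). The sums of all other cell types overlapped. Hepatocyte marker sums were 37700 to 44688 FPKM (WT) and 42233 to 49190 (null). Macrophage sums were 118 to 173 and 114 to 200, and neutrophil sums 1.92 to 6.13 and 2.21 to 5.98. Cholangiocyte sums were 15.2 to 18.002 and 12.4 to 15.5, and B cell sums 0.848 to 3.16 and 2.09 to 5.21. Of the marker lists, 1 macrophage and 1 hepatocyte gene were called higher and 1 stellate cell gene lower. Their part in these differences was not tested. Il1b and its neighbour Il1a lie 11.2 Mb from Thbs1 on chromosome 2, and no other member lies within 30 Mb of it. Il1a was lower by -0.61 (adjusted p = 0.0743) and was not called, whereas without null control library 5 it was called at -0.76 (adjusted p = 0.0235). Il34 had all 5 null control livers, at 0.928 to 1.34 FPKM, above all 5 WT control livers, at 0.665 to 0.832, and its difference of 0.53 (adjusted p = 0.0164) was below the fold threshold. Il34 and Il6ra were the members without overlap in this direction, 5.13% of those tested beside 2.33% of all genes. In the opposite direction no member was without overlap, beside 6.69% of all genes. Il17rb, the IL-25 receptor, differed by 0.57 (adjusted p = 0.0506). At an unadjusted p under 0.05 there were 8 members on control diet, 20.5% of those tested beside 27.3% of all genes.

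On CDAHFD no member was called by limma or by limma-voom, beside 0.496% of all genes tested by limma, 0.165% higher and 0.330% lower. At an unadjusted p under 0.05 there were 2, Il6ra and Il17re, beside 17.2% of all genes. Il6ra was again without overlap, as were 0.847% of all genes in this direction. In the opposite direction there was no member, beside 4.13% of all genes. It stood at 17.9 to 22.3 FPKM in livers labelled null and 13.1 to 15.7 FPKM in livers labelled WT, with a log2 difference of 0.52 (SE 0.15, adjusted p = 0.0904) that was below the fold threshold; under quantile normalization it was called, at 0.61 (adjusted p = 0.0383). Il1b differed by -0.06 on this diet (95% interval -0.71 to 0.58). No member was called for the diet by genotype interaction by either tool, beside 0.647% of all genes, 0.337% higher and 0.310% lower. There were 5 members (Il1a, Il1b, Il4i1, Il11ra1 and Il15) at an unadjusted p under 0.05, beside 15.1% of all genes, and the lowest adjusted p was 0.142, for Il11ra1 (-0.43).

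**Figure D4:**
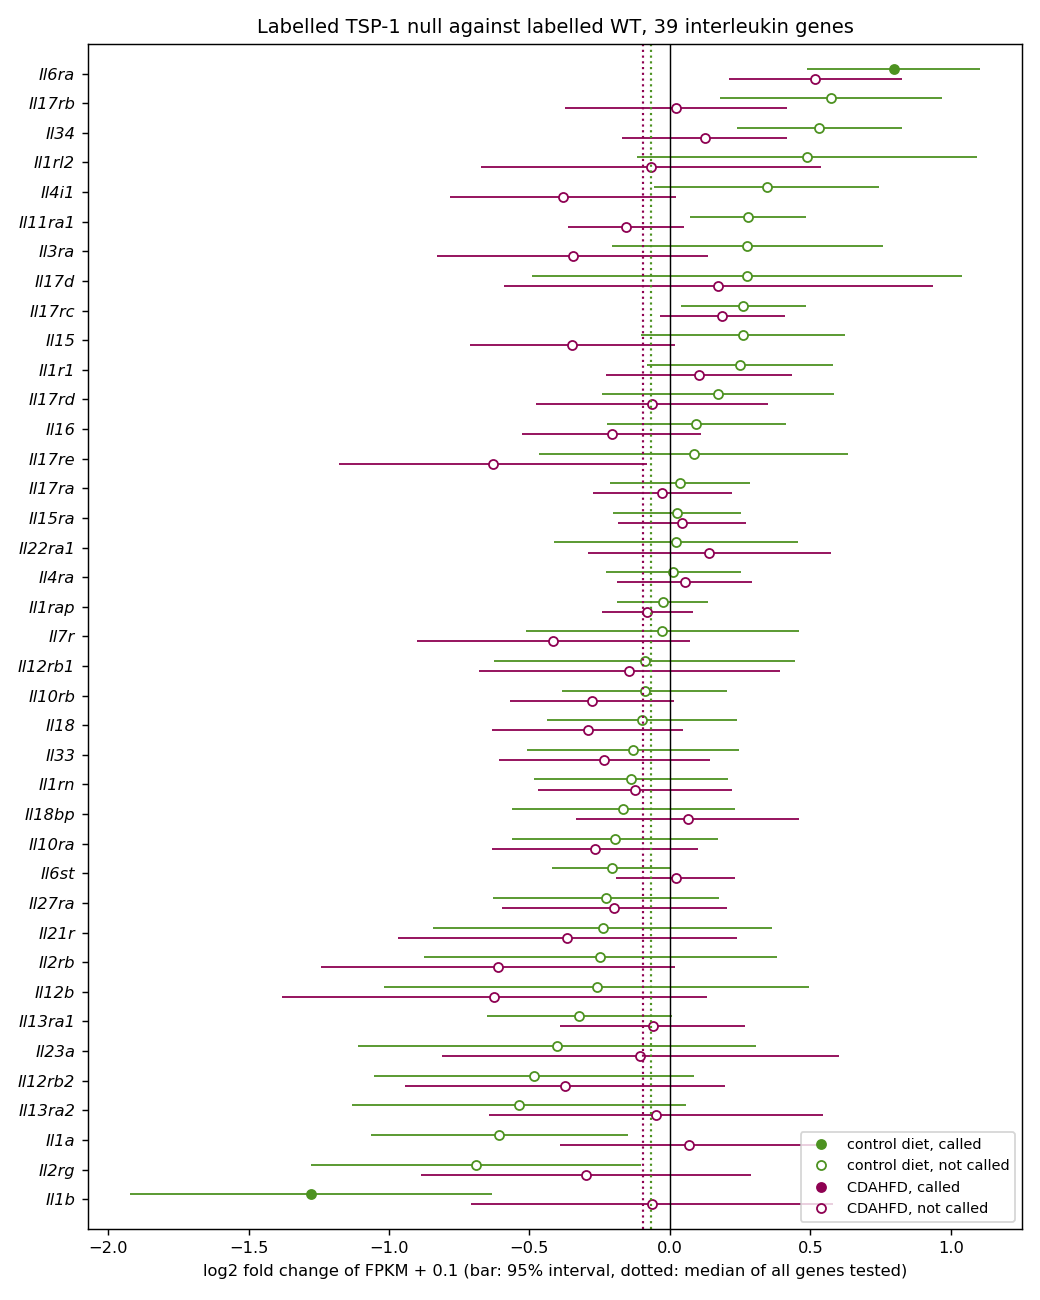
Log2 difference of FPKM + 0.1 between livers labelled TSP-1 null and WT (x axis) for the 39 tested members (y axis), on control diet and on CDAHFD; bars are 95% intervals from limma, filled points were called and dotted lines mark the medians of all genes tested. Il6ra lies right of 0 on both diets, at 0.80 and 0.52, and Il1b lies left on control diet only, at -1.28 against -0.06.

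The 43 members under the filter were examined by their fragments, which could be recovered as whole numbers from the FPKM values. Besides the 15 without a fragment, 10 had 1 to 9 fragments over all 20 libraries and 18 had at least 10. A limma-voom fit on every gene with at least 10 fragments, chosen after the data were seen, called 13 of these 18 higher in mice labelled WT, and 9 higher and 1 lower in mice labelled null. Of all genes fitted, 47.1% and 43.9% were called in either direction. Some of the 18, such as Il1rl1, reached 10 fragments only with the help of CDAHFD libraries and so had to be high there to be fitted. No count without such members was made. By genotype label that fit called 3.61% of genes on control diet and 0.741% on CDAHFD, and 0.604% for the interaction. The limma test without any filter called 35.5% and 32.2% of genes with diet, 2.50% and 0.497% by genotype label and 0.211% for the interaction. Of those 13, 5 belong to the IL-1 group, namely Il1f9, Il1r2, Il1rl1, Il18r1 and Il18rap. Il1f9, which encodes IL-36 gamma, had 9 to 22 fragments a library in WT CDAHFD and 7 to 16 in null CDAHFD livers, against 0 to 3 and none in the control groups. Its mean level was at least 4.52-fold and at least 3.60-fold higher on CDAHFD, set against 3 fragments per library. The voom fit also called it lower in null control than in WT control livers (adjusted p = 0.0488), where both groups held at most 3 fragments a library and no fold is given.

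Il1rl1, the IL-33 receptor, summed to 2, 4, 44 and 58 fragments over WT control, null control, WT CDAHFD and null CDAHFD libraries, at least 2.97-fold and 3.97-fold higher on CDAHFD. Il1r2, the decoy receptor of IL-1, summed to 8, 4, 52 and 39 fragments in this order. Il18r1 and Il18rap, the receptor chains of IL-18, summed to 50, 41, 224 and 112 and to 41, 37, 196 and 162 fragments, respectively. As ratios of mean FPKM the rises were 4.26-fold and 2.73-fold for Il18r1. Il7, the ligand of Il7r, summed to 8, 10, 67 and 52 fragments, and Il9r, the IL-9 receptor, to 7, 15, 75 and 64. Il17c, the ligand of Il17re, had at most 1 fragment in a control library and 1 to 8 in CDAHFD libraries. The high-affinity IL-2 receptor chain Il2ra went the other way, with 86 and 124 fragments in the control groups and 45 and 59 on CDAHFD, and was called lower in mice labelled null (log2 fold change -1.10, adjusted p = 0.015) but not in mice labelled WT (-0.95, adjusted p = 0.0562). Il4 summed to 11, 13, 39 and 27 fragments, and the type 2 ligands Il5 and Il13 to 0, 0, 4 and 1 and to 0, 0, 6 and 2.

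**Figure D5:**
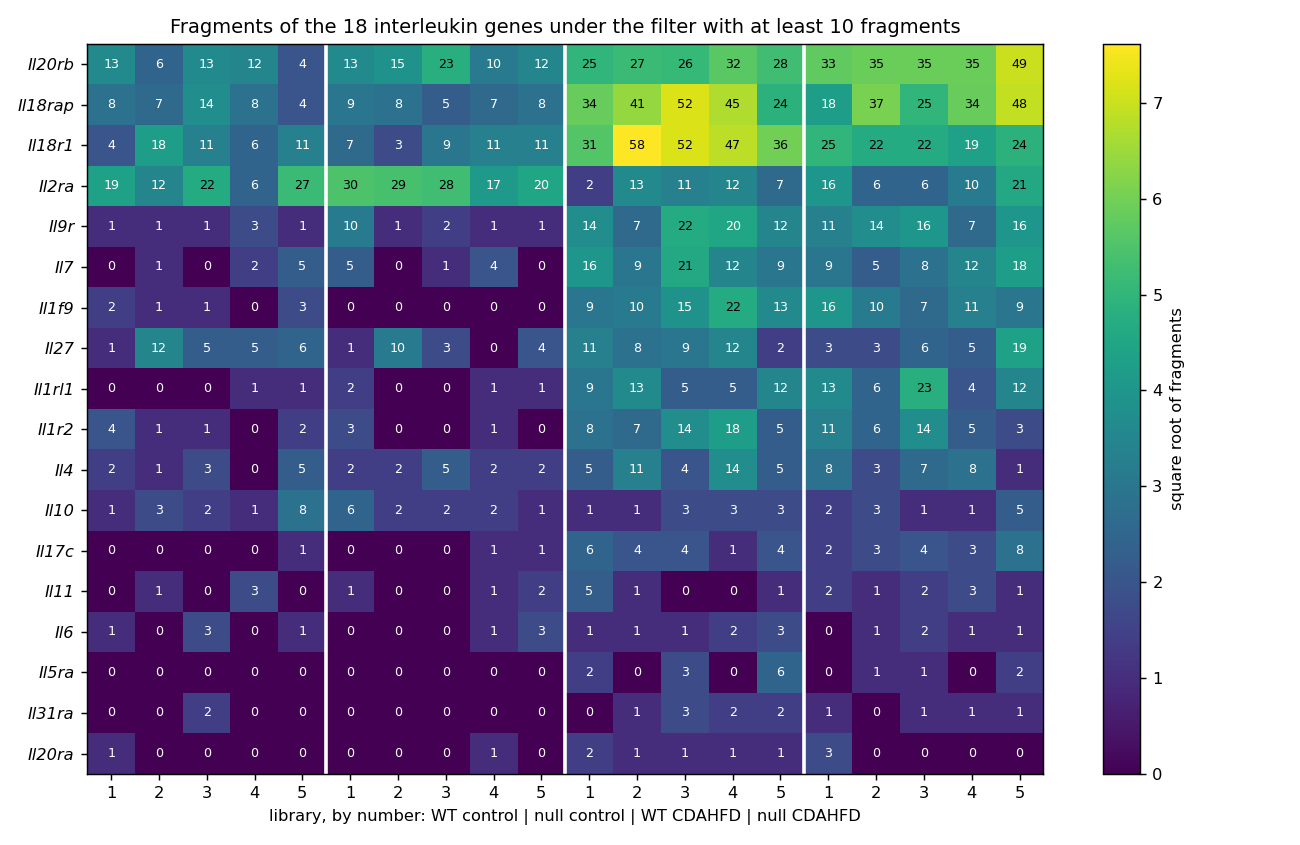
Fragments per library for the 18 members under the filter that had at least 10 fragments in all (rows), with the 20 libraries as columns in 4 groups of 5; colour is the square root of the fragments. Il1f9, Il1rl1 and Il18rap are higher in the 10 CDAHFD libraries than in the control libraries, Il2ra has its highest counts in control libraries, and Il6 and Il10 stay below 9 fragments everywhere.

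Genes that act with the interleukins but carry other symbols were read from 4 lists. Their counts stand beside 44.1% higher and 4.62% lower of all genes tested in mice labelled WT. In mice labelled null these shares were 41.9% and 4.00%, and the medians of all genes were 0.53 and 0.50 in the 2 labels. Listed genes that were low on control diet, such as Clcf1, could pass the filter with the help of CDAHFD libraries. No count or median without such genes was made for the 4 lists. Of 13 tested partner subunits and related ligands, of which Cd4 and Csf1r are also T cell and macrophage markers, 9 rose and 1 fell in either label, with a median of 1.37 in mice labelled WT and 1.30 in mice labelled null. Csf2rb2, which encodes a beta chain for IL-3, rose by 3.19 and 3.23, and Clcf1, a ligand that signals through gp130, by 4.08 and 3.39, from a mean of 0.222 FPKM in WT control to 5.35 in WT CDAHFD livers. Csf1, which shares its receptor with IL-34, rose by 1.72 and 1.99. Lifr, a partner of gp130, was the member of this list that fell, by -1.12 and -0.92. Of 16 genes of IL-1 and IL-18 signalling 8 rose in either label and none fell, with a median of 0.54 and 0.58, close to that of all genes. Among them Irak3, an inhibitor of this pathway, rose by 2.48 and 2.37, Nfkbiz by 1.55 and 1.59 and Nfkb1 by 1.10 and 1.13, of which the rise of Nfkb1 in mice labelled WT was 0.56 and not called under the median of ratios scaling.

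Of 17 JAK-STAT genes 9 rose in mice labelled WT and 8 in mice labelled null, beside 44.1% and 41.9% of all genes tested. The medians of these 17 were 0.65 and 0.57, close to 0.53 and 0.50 over all genes. Stat4, which acts downstream of IL-12, rose by 2.36 and 1.79 and Jak2 by 0.94 and 1.22. Under quantile normalization the rises of Stat4 in mice labelled null (0.53) and of Jak2 in both labels (0.31 and 0.57) were not called. Of 19 acute phase genes that answer IL-6 and IL-1, 5 rose and 3 fell in mice labelled WT, 8 rose and 1 fell in mice labelled null, and the medians of 0.14 and 0.18 lay below those of all genes. Lcn2 rose by 4.87 and 5.34, Orm2 by 4.13 and 3.44, Saa3 by 3.15 and 3.24 and Steap4 by 2.14 and 2.56, whereas Fgb, Fgg and Itih4 fell in mice labelled WT and Itih3 in mice labelled null. Lcn2 and Saa3 are also made by cells other than hepatocytes, whose part was not tested.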

How the data were processed

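Poly(A) RNA of 20 mouse livers, 5 per group, had been sequenced by the authors with a directional kit. Per the submitters' processing notes they used STAR 2.5.2 and featureCounts of Subread 1.5.1; the notes name GRCh38 although the table is of mouse, and all 82 member IDs overlap their place in GENCODE M21 (GRCm38). The deposited table holds FPKM per gene with 3 decimals, computed by the authors, which are not counts. Whole fragments were recovered from FPKM, gene length and depth, and 100% of the values checked were whole within 0.02. Each library held 15641544 to 23276322 fragments (median 18950482), which sets the counting error.

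From these values log2(FPKM + 0.1) was fitted over the 14524 genes that exceeded an FPKM of 0.5 in 5 or more of the libraries, with limma 3.58.1 in R 4.3.3 (4 groups in 1 model, trended variance), and Benjamini-Hochberg adjustment ran over all of them. A call needed an adjusted p under 0.05 and an absolute log2 fold change above 0.58, in a two-sided test. Groups came from the sample labels. The comparisons were diet within each genotype label, genotype label within each diet, and their interaction. No column of values was left unused. Samples are separate mice as far as the labels say, no numbers pair them, and p-values measure the spread between these mice. The fit was tested on simulated fragments in which a small set of genes was changed in the WT CDAHFD group only. That test does not cover a change of much of the transcriptome, as was seen here with diet. Given library by library were the members called by genotype label or for the interaction, the 12 largest calls of each diet comparison, and Il1b, Il6, Il18, Il33, Il1rn, Il6ra, Il6st, Il1r1, Il4ra and Il10, of which Il6 and Il10 are given by fragments. Il1a and Il1rap were added after their values were seen. From each pathway list at most 4 genes a comparison were named, those with the lowest adjusted p, besides genes a count of 5 or fewer turns on. Members and lists were chosen with earlier results of these data known. The alternatives were other pseudocounts (0.01 and 1), no filter, median of ratios scaling, quantile normalization, limma-voom on recovered fragments, other fits and leaving out each library. A voom fit on every gene with at least 10 fragments was added after the data were seen. Promoters came from RefSeq (GRCm38.p6), where 65 of 82 members matched. Protein sequences were not used here.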

Additional observations from a re-analysis of the deposited data

Results flagged for a closer look

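Among 168 groups of 5 libraries checked, 10 held a library far from the other 4 by Dixon's criterion, and chance gives about 1 in 20 groups. On control diet, null control liver 5 was lowest for Il10ra (1.315 FPKM, the others 1.736 to 1.884) and highest for Il13ra1 (6.902, the others 3.602 to 4.516) and Il18 (7.69, the others 4.068 to 4.886). WT control liver 4 was lowest for Il10rb (1.24, the others 1.724 to 1.907), WT control liver 2 highest for Il1r1 (5.748, the others 2.728 to 3.519), and null control liver 2 the only null control liver with Il12b (0.157). On CDAHFD, WT liver 5, the library with the most ribosomal RNA-like fragments, was lowest for Il12b (0.294, the others 0.567 to 0.674) and Il2rg (2.254, the others 4.041 to 4.712), WT liver 1 was highest for Il11ra1 (12.92, the others 9.721 to 10.525), and null liver 5 was highest for Thbs1 (4.398, the others 3.048 to 3.316).

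The response of Thbs1 to diet differed between the genotype labels in a test of that difference (-2.66 on the log2 scale, limma adjusted p = 0.0023), with a rise of 4.03 in mice labelled WT and 1.36 in mice labelled null.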

How the results depend on the processing

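Over the alternatives, the members kept their call or their lack of one in 6603 of 6706 results, lost a call in 58, gained one in 37 and reversed in 8. A reversal is a change of sign where at least 1 of the fits made a call. Changes of sign where neither fit made a call are among the 6603. Quantile normalization gave all 8 reversals: Il12rb1 (-0.97 in mice labelled WT, -0.94 in mice labelled null), Il12rb2 (-1.09, -0.97), Il13ra2 (-0.80, -0.21) and Il16 (-0.11, -0.32); of the pathway genes Pias1 reversed in mice labelled WT (-0.031). It also gave 17 members higher and 5 lower with diet in mice labelled WT, 16 and 4 in mice labelled null, and 1 member (higher) between genotype labels on CDAHFD. Median of ratios scaling gave 2 members lower with diet in either label, and 24 and 25 calls in all. A pseudocount of 1 gave 24 and 21 calls. With no fold threshold 2 members were lower with diet in either label, and with no filter or with voom at 10 fragments 2 were lower in mice labelled null. By genotype label on control diet 4 members were called with a pseudocount of 0.01 or with median of ratios scaling (3 higher in each), 2 were higher with no fold threshold and 2 lower with voom at 10 fragments. The members that stayed untested were 43 with the filter, 15 with no filter and 25 with voom at 10 fragments. The 4 pathway lists held 4 calls by genotype label on control diet, but 2 with a pseudocount of 1, either scaling or a fit of the groups compared alone, and 8 with no fold threshold; their interaction gave 1 with voom, with either filter. The cause of these changes was not tested.

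Leaving out each library in turn gave 29 to 35 members with diet in mice labelled WT (28 to 33 higher, 1 to 2 lower), the most without WT CDAHFD library 5, and 29 to 31 in mice labelled null (28 to 29 higher, 1 to 2 lower). By genotype label it gave 2 to 4 on control diet (1 to 2 higher, 1 to 2 lower), the most without null control library 5, which added Il1a (-0.76) and Il17rb (0.63), and 0 on CDAHFD and for the interaction. The pathway lists ranged over 34 to 38, 32 to 38, 1 to 5, 0 and 0 to 1 calls in the same order. Thbs1 ranged from 3.82 to 4.18 and 1.27 to 1.501 with diet, 2.07 to 2.43 and -0.48 to -0.28 by genotype label, and -2.81 to -2.46 for the interaction.

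The replicate numbers do not pair the mice: of 30 pairs of libraries with the same number, 0 had deviations that correlated above 0.1 (-0.133 to 0.0812). With the replicate number as a block 31, 29, 2, 0 and 0 members were called in the 5 comparisons. Depth limits the 43 members under the filter, where a count of 0 allows up to 3 fragments a library.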
